A study of Homo sapiens with 24 samples.

Results

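SLNCR (gene symbol LINC00673) is a long noncoding RNA gene on the long arm of chromosome 17, and 7 further genes lie around it. These 8 genes were chosen by name for their position: SOX9, LINC00673, LINC00511, SLC39A11, SSTR2, COG1, FAM104A and CDC42EP4. The 2 deposited count tables hold 28008 genes (batch 1) and 60221 genes (batch 2). Batch 1 has a row for each of the 8 genes. Batch 2 has 7 such rows, because SLNCR has no row of its own there and lies inside the Ensembl gene LINC00511. The question was how the neighbours of the endogenous gene behaved when SLNCR RNA was supplied from a plasmid.

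SLNCR is known for binding the androgen receptor and the transcription factor BRN3A and for raising MMP9 in melanoma cells. A triplex-forming region (TFR) of an RNA is a stretch proposed to lie in the major groove of double-stranded DNA, along a run of purines. SOX9 is an HMG-box transcription factor of cartilage, neural crest and melanocytes, and stands in a wide gene desert whose distant enhancers control it. Long noncoding RNAs can act on genes beside their own locus while being made there, so an RNA supplied from a plasmid tests a different situation from transcription of the locus itself.

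A375 is an established human melanoma line, and every library came from it. Every group was transfected with pcDNA3.1, a plasmid that carries puromycin resistance and a CAG promoter, and RNA was taken after 48 h in 2 µg/mL puromycin. In each batch 3 libraries came from empty vector and 3 from full-length SLNCR (FL), labelled as biological replicates. Batch 1 further held SLNCR without TFR1 (ΔTFR1) and without TFR2 (ΔTFR2), and batch 2 held SLNCR without TFR4 (ΔTFR4) and without TFR5 (ΔTFR5), with 3 libraries each. Of these libraries 6 were taken over from an older series, and which ones is not stated. Libraries held 8627449 to 10789211 counts in batch 1 and 24810226 to 33063445 in batch 2. The share of cells that took up a plasmid is not given, and in bulk RNA a change in a few cells cannot be told apart from a smaller change in all of them. The batches differ in counting method and in the regions deleted, so no level was compared between them.

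Markers were read before the members. SOX10 was at 10.9 to 17.2 CPM (the usual CPM scale, counts relative to library size) in batch 1 and 43.9 to 77.9 in batch 2. MITF was at 74.4 to 101.0 and 55.8 to 198.0, while TYR, which makes melanin, was at 0 to 0.0795. PMEL (0.194 to 1.9 and 0.416 to 1.02), MLANA (1.03 to 2.99 and 0.303 to 1.64) and DCT (0.097 to 0.765 and 0.0738 to 0.33) were low. Of 10 melanocyte lineage genes read, 5 had a mean of at least 1 CPM in each batch. The 5 markers of dedifferentiated melanoma summed to 1060 to 1130 and 1590 to 2370 CPM. The labels call the cells epithelial. EPCAM stayed at or below 0.74 CPM and CDH1 at or below 5.01, and KRT18 lay between 228 and 523. FL replicate 1 of batch 2 stood apart: its 3 leukocyte markers (PTPRC, CD3E, CD14) summed to 3.66 CPM against 0.0311 to 0.239 in the other 11 libraries of its batch, and its 7 epithelial markers summed to 294 CPM against 420 to 698. Its expression also trended with the GC content of genes (Spearman rho across genes −0.541, against −0.131 to 0.282 in the other 11). In batch 1 the trend was negative in all 3 FL libraries, at −0.602 to −0.371, and positive in the other 9, at 0.0287 to 0.522. For most members, FL against empty vector is therefore also given as a GC-removed value and, in batch 2, without FL replicate 1.

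On GRCh38 chromosome 17, RefSeq places SOX9 at 72121020 to 72126416 on the plus strand, 276.9 kb below the lower end of the SLNCR gene. LINC00673 itself spans 72403322 to 72592804. LINC00511 follows at 72598041 to 72640472 in RefSeq, 5.2 kb above it. SLC39A11 spans 72645949 to 73092688 (53.1 kb away), SSTR2 73165010 to 73176633 (572.2 kb), COG1 73193055 to 73208507 (600.3 kb), FAM104A 73207353 to 73232394 (614.5 kb) and CDC42EP4 73283624 to 73312001 (690.8 kb). FAM104A and COG1 overlap at their 3′ ends on opposite strands, and the antisense gene SOX9-AS1 spans SOX9. Without a stated strand setting, reads of such pairs may have been assigned to either gene.

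What a row counts differs between the batches. RefSeq has 5 SLNCR transcripts of 2160 to 2527 bases, and 1 LINC00511 transcript of 2265 bases. Of the 2235 words of 31 bases in the LINC00511 transcript, 0 occur in any of the 5 SLNCR transcripts. A plasmid copy of any of these SLNCR transcripts would thus share no such word with the RNA that RefSeq calls LINC00511. That is the model whose name batch 1 carries beside a separate LINC00673 row. The sequence of the plasmid insert itself is not given. The Ensembl gene LINC00511 spans 72290091 to 72640472 with 106 transcripts and takes in both. Its batch 2 row sums plasmid SLNCR, endogenous SLNCR and all other LINC00511 transcripts, and reads of plasmid and endogenous SLNCR cannot be told apart in either batch.

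The sequences below show parts of a RefSeq SLNCR transcript and the start regions of SLC39A11 and CDC42EP4. With SOX9 they are the coding neighbours called in batch 2, and for SOX9 no promoter was matched in the RefSeq table used. The longest unbroken run of purines (A and G) or pyrimidines (C and T), and any other run of equal length, is in capitals, since triplexes are proposed to form along such runs. A run of either kind on one strand is the other kind on the opposite strand, so both strands were covered. Where the study's TFRs lie in SLNCR is not given in the sources used here.

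SLNCR transcript NR_036488.1, bases 1391 to 1480 of 2257: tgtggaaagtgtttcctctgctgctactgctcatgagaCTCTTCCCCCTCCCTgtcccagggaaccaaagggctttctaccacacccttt
SLNCR transcript NR_036488.1, bases 567 to 656: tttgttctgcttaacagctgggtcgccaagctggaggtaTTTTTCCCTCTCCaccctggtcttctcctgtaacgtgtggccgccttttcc
SLC39A11 promoter, chr17:73092639-73092938, minus strand, GRCh38.p14: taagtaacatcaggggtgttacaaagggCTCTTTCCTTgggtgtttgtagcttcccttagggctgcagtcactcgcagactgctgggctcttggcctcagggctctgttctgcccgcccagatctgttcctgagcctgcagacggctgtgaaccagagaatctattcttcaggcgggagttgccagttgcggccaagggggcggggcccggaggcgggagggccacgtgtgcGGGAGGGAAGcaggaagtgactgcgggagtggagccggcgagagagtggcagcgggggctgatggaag
CDC42EP4 promoter, chr17:73311952-73312251, minus strand, GRCh38.p14: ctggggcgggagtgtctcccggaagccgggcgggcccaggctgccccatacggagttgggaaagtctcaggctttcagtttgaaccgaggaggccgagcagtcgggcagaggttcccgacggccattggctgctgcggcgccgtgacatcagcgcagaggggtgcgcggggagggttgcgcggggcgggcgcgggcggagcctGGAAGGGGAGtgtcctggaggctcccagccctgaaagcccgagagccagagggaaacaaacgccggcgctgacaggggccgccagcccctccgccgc

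The longest run in SLNCR is 15 pyrimidines, and it is the longest in each of the 5 transcripts. The next longest in NR_036488.1 is 13 pyrimidines. Both promoters (250 bases before to 50 after the RefSeq start) have a longest run of 10 bases. SLC39A11 has 2 such runs, of pyrimidines and of purines, and CDC42EP4 has 1, of purines. A run at least that long is in 72.0% of the 35116 promoters of the table, whose median longest run is 11. LINC00673's own promoter also reaches 10, COG1's 8, FAM104A's 11, LINC00511's 13 and SSTR2's 14, which 25.9% of promoters match or exceed. The runs of the promoters printed are thus of common length, and no binding is shown by a run.

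SLNCR RNA rose in every group that received the plasmid, in both batches. In batch 1, LINC00673 stood at 18.9, 20.8 and 20.6 CPM with empty vector (195, 194 and 193 counts). FL libraries were at 165, 240 and 220 CPM, ΔTFR1 at 191, 205 and 197, and ΔTFR2 at 206, 187 and 192. No construct library came near the empty vector group, and the 3 construct groups overlapped one another.

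Against empty vector the log2 fold change was 3.37 ± 0.14 (SE) in FL, with an adjusted p of 3.65e-06 by edgeR's quasi-likelihood test, the test behind every adjusted p here. It was 3.30 ± 0.14 in ΔTFR1 (adjusted p 4.91e-06) and 3.28 ± 0.14 in ΔTFR2 (adjusted p 5.2e-06). The GC-removed value in FL was 3.37 (adjusted p 0.000116). Deleting TFR1 or TFR2 left the amount of SLNCR RNA within an approximate 95% interval of −0.29 to 0.14 and −0.31 to 0.12 of FL on the log2 scale. FL replicate 1 had the lowest SLNCR of the 9; without it, ΔTFR1 was lower than FL by −0.23 (adjusted p 0.0249) and ΔTFR2 by −0.25 (0.0215).

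In batch 2 the row that holds SLNCR stood at 30.1, 29.1 and 27.9 CPM with empty vector. FL libraries were at 728, 658 and 334 CPM, ΔTFR4 at 515, 498 and 444, and ΔTFR5 at 321, 376 and 192. All 9 construct libraries exceeded the empty vector group, but FL replicate 3 lay among the ΔTFR5 libraries. The log2 fold changes against empty vector were 4.30 ± 0.30 in FL (adjusted p 4.03e-05), 4.06 ± 0.30 in ΔTFR4 (1.43e-05) and 3.35 ± 0.29 in ΔTFR5 (6.42e-05). The FL value was 4.30 with the GC trend removed (adjusted p 0.000134) and 4.10 without FL replicate 1 (0.00218). ΔTFR5 against FL gave −0.95 ± 0.26 (adjusted p 0.0802), which DESeq2 called at an adjusted p of 0.0115 and which was −1.23 (0.00208) without FL replicate 3 and −0.75 (0.21) without FL replicate 1. ΔTFR4 against FL gave −0.24 ± 0.26 (adjusted p 0.618). Group means of this row thus ran from 296 CPM in ΔTFR5 to 574 in FL, while the main test called no difference between constructs.

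**Figure D1:**
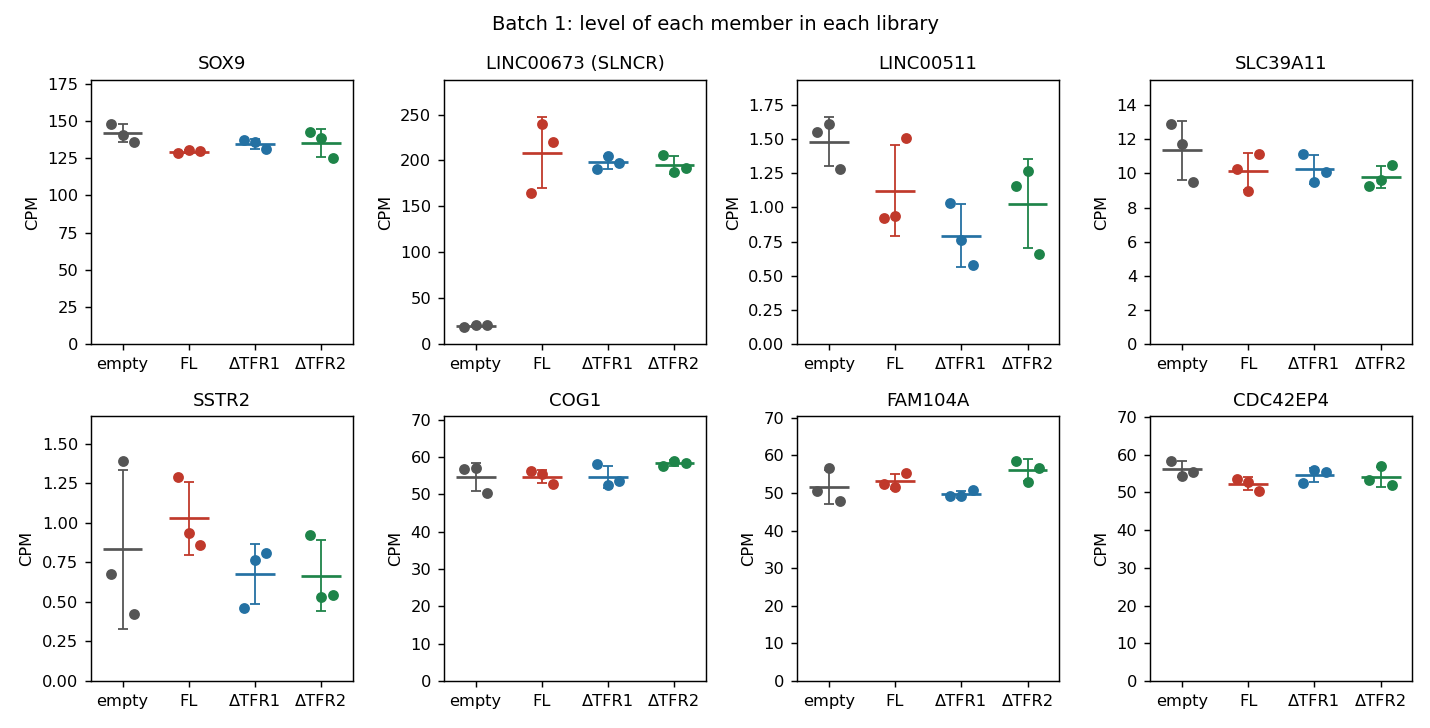
Level of the 8 genes in each batch 1 library (y axis, CPM from 0), with empty vector, FL, ΔTFR1 and ΔTFR2 along the x axis; points are libraries and each short line with its error bar is the mean ± SD of a group (n = 3). LINC00673 goes from 20.1 ± 1.04 CPM with empty vector to 208 ± 38.8 in FL, and the other 7 genes stay within ranges that mostly overlap.

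**Figure D2:**
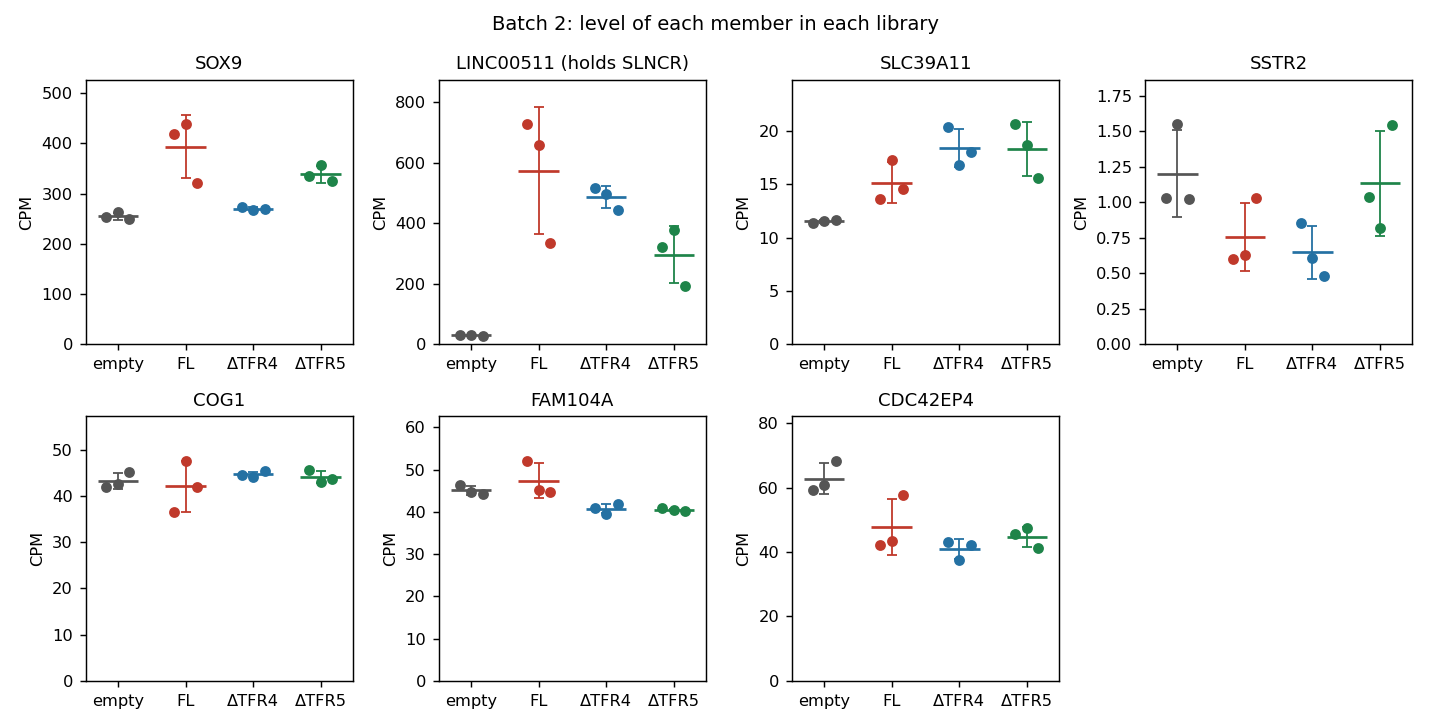
Level of the 7 rows in each batch 2 library, drawn as for batch 1, with empty vector, FL, ΔTFR4 and ΔTFR5. SOX9 is highest in FL (393 ± 63.1 CPM, SD, n = 3), SLC39A11 is above empty vector in all 9 construct libraries, and CDC42EP4 is below it in all 9.

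In batch 1 no neighbour was called in any comparison. SLNCR was the 1 member called of 7 tested in FL against empty vector, where 22.7% of all 14310 genes were called, and of the other 6 an unadjusted p under 0.05 was reached by 1 (SOX9) and a DESeq2 call by 0. It was also the 1 called in ΔTFR1 against empty vector (0.00699% of all genes called, while LINC00511 alone of the other 6 had an unadjusted p below 0.05), in ΔTFR2 against empty vector (0.014%, with 0 of the other 6) and in all constructs together against empty vector (0.021%, with 2 of the other 6). DESeq2 called 0 of the other 6 in each. However, it gave no adjusted p for LINC00511 in FL against empty vector. With all constructs it gave none for LINC00511 and SLC39A11, so these could not be called. Between constructs 0 of 7 were called in ΔTFR1 against FL (10.1% of all genes), ΔTFR2 against FL (10.0%) and ΔTFR2 against ΔTFR1 (0.0%). At an unadjusted p under 0.05 these 3 comparisons had 0, 0 and 1 member (FAM104A), and DESeq2 called 0 in each. In ΔTFR1 against FL, LINC00511 and SLC39A11 again had no adjusted p from DESeq2. The test for any difference among the 4 groups called SLNCR alone (13.4% of all genes).

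In batch 2 the 4 members called were the SLNCR row, SOX9, SLC39A11 and CDC42EP4. FL against empty vector called 2 of 7 (1.16% of all 18763 genes), ΔTFR4 against empty vector 3 (23.9%) and ΔTFR5 against empty vector 4 (10.2%). All constructs together against empty vector called 4 of 7 (20.3%), as did the test for any difference (18.7%). ΔTFR4 against FL called 1 of 7, SOX9 (4.36%). ΔTFR5 against FL called 0 of 7 (1.38%), with 2 members whose unadjusted p was under 0.05 and 1 that DESeq2 called. ΔTFR5 against ΔTFR4 also called 0 of 7 (0.453%), with 2 members whose unadjusted p was under 0.05 and 0 that DESeq2 called. Leaving the SLNCR row aside, 3 of 6 neighbours were called with all constructs, at a background of 20.3%, so change was common across the genome in that comparison.

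**Figure D3:**
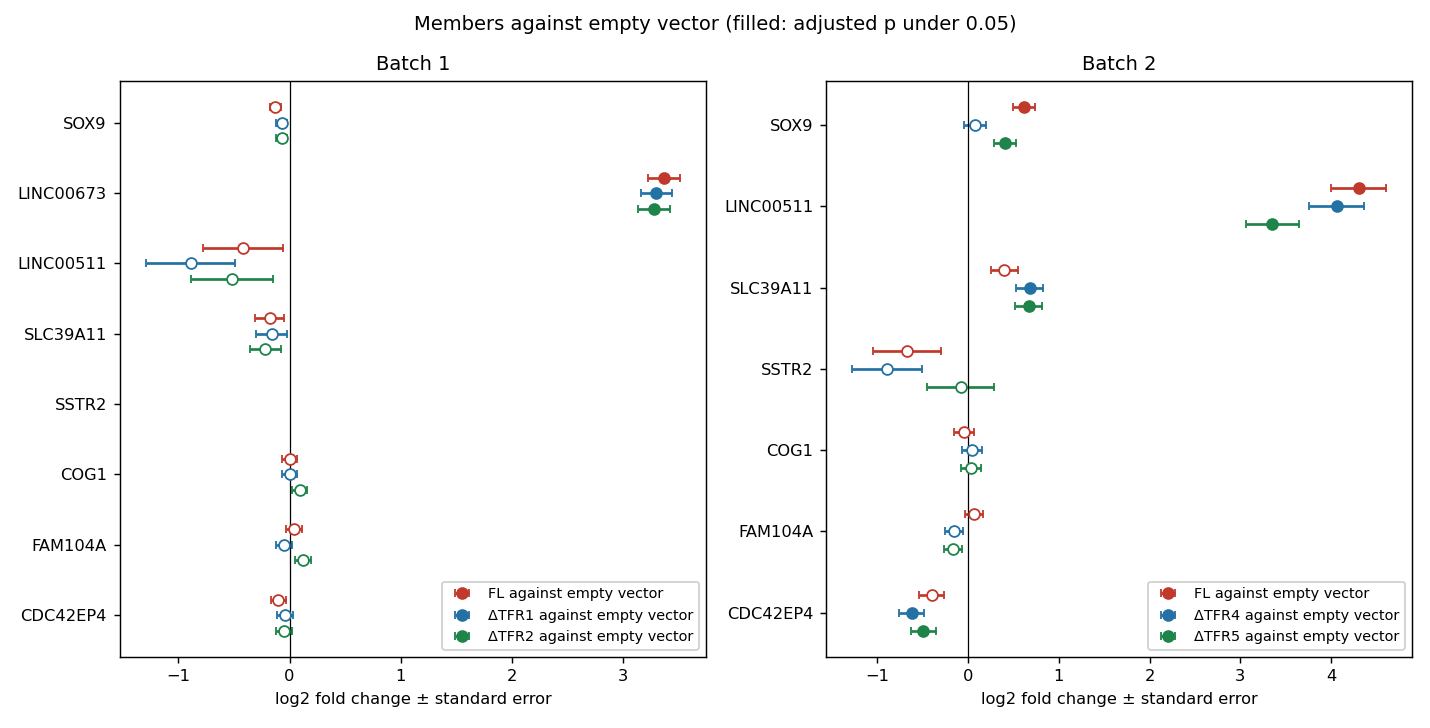
Log2 fold change ± standard error (x axis) of each member against empty vector in batch 1 (left) and batch 2 (right), with 3 groups per member; filled points have an adjusted p under 0.05. In batch 1 only LINC00673 is filled, at 3.28 to 3.37; in batch 2 SOX9, SLC39A11 and CDC42EP4 have filled points beside the LINC00511 row.

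SOX9, the transcription factor on the lower side of SLNCR, was the most abundant member per kb of exon. With empty vector its level per kb of exon was 36.0 ± 1.54 CPM per kb in batch 1 (SD, n = 3) and 64.8 ± 1.8 in batch 2. In batch 1 the libraries stood at 148, 141 and 136 CPM with empty vector, 128, 130 and 130 in FL, 137, 136 and 131 in ΔTFR1 and 143, 138 and 125 in ΔTFR2. The FL libraries lay below all 3 empty vector libraries by a small margin, and each deletion group overlapped empty vector. Groups without overlap made up 36.5% of all genes in that comparison. The FL difference was −0.13 ± 0.05 on the log2 scale (adjusted p 0.0777), and −0.07 with the GC trend removed (adjusted p 0.491). The GC trend was −0.602 to −0.371 in these FL libraries and 0.118 to 0.522 in those of empty vector, and its part in the difference was not tested beyond that value.

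In batch 2 SOX9 was higher than empty vector in FL and in ΔTFR5, and ΔTFR4 was lower than FL. Empty vector libraries stood at 254, 263 and 249 CPM, FL at 419, 439 and 321, ΔTFR4 at 273, 268 and 269, and ΔTFR5 at 334, 358 and 325. ΔTFR4 lay just above empty vector, and FL replicate 3, the FL library with the least SLNCR, lay just below the lowest ΔTFR5 library. FL and empty vector did not overlap, as in 23.0% of all genes, nor did FL and ΔTFR4, as in 24.2%. The FL rise over empty vector was 0.62 ± 0.12 (adjusted p 0.0425), or 1.54-fold, and 0.68 with the GC trend removed (adjusted p 0.0269). Without FL replicate 1, the library that stood apart, it was 0.58 (adjusted p 0.0494). ΔTFR5 against empty vector was 0.41 ± 0.12 (adjusted p 0.0472) and all constructs together 0.37 ± 0.10 (0.0211). ΔTFR4 against empty vector was 0.08 ± 0.12, an approximate 95% interval of −0.15 to 0.32 (adjusted p 0.653). ΔTFR4 against FL was −0.54 ± 0.12 (adjusted p 0.0272; GC-removed −0.60, 0.0113; −0.50 and 0.0163 without FL replicate 1), while ΔTFR5 against FL was −0.21 ± 0.12 (0.327; −0.34 and 0.0275 without FL replicate 3) and ΔTFR5 against ΔTFR4 0.33 ± 0.12 (0.409).

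These SOX9 calls sat near the threshold. In FL against empty vector the call was lost when any 1 library other than FL replicates 1 and 3 was left out, at adjusted p 0.0693 to 0.196 with log2 values of 0.53 to 0.64, and when only the 2 groups compared were fitted (adjusted p 0.349). The ΔTFR5 call was lost without any 1 library outside FL (0.0602 to 0.172), with RLE size factors (0.0512) and with no filter on low counts (0.134). The call with all constructs was lost without any 1 empty vector library (0.0756 to 0.114) and with no filter (0.0561). ΔTFR4 against FL lost its call without any 1 ΔTFR4 library, empty vector replicate 1 or 2, or ΔTFR5 replicate 1 (0.0506 to 0.125), and with only the 2 groups fitted (0.212).

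LINC00511, the noncoding gene beside SLNCR, could be read apart from SLNCR in batch 1 alone. It was scarce, at 16, 15 and 12 counts with empty vector, 10, 10 and 14 in FL, 9, 7 and 5 in ΔTFR1 and 10, 12 and 6 in ΔTFR2. In CPM the empty vector libraries were at 1.55, 1.61 and 1.28, and the 9 construct libraries ran from 0.578 to 1.51. The log2 fold change was −0.42 ± 0.36 in FL (adjusted p 0.432; GC-removed −0.41, 0.62), −0.89 ± 0.40 in ΔTFR1 (0.992) and −0.52 ± 0.37 in ΔTFR2 (0.994). All constructs together gave −0.61 ± 0.30 (adjusted p 0.295), an approximate 95% interval of −1.20 to −0.03. None was called, and at these counts a change smaller than that interval was not resolved.

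SLC39A11 encodes the zinc transporter ZIP11 and is the nearest coding gene. In batch 1 it stood at 12.9, 11.7 and 9.49 CPM with empty vector, 10.3, 8.97 and 11.1 in FL, 11.1, 9.49 and 10.1 in ΔTFR1 and 9.23, 9.62 and 10.5 in ΔTFR2. The groups overlapped, and the log2 fold changes against empty vector lay between −0.22 and −0.16, with adjusted p of 0.364 to 0.994. In FL it was −0.18 ± 0.13, and −0.13 with the GC trend removed (adjusted p 0.664).

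In batch 2 SLC39A11 rose in both deletion groups. Empty vector libraries were at 11.4, 11.5 and 11.6 CPM, FL at 13.6, 17.3 and 14.5, ΔTFR4 at 20.4, 16.8 and 18.0, and ΔTFR5 at 20.7, 18.7 and 15.6. All 9 construct libraries exceeded all 3 of empty vector, a pattern without overlap that 14.2% of all tested genes share in one direction or the other. ΔTFR4 against empty vector was 0.68 ± 0.15 (adjusted p 0.00666), a 1.6-fold rise, and ΔTFR5 0.67 ± 0.15 (0.0153). FL was 0.40 ± 0.15 and was not called (adjusted p 0.125; GC-removed 0.43, 0.0677; 0.47 and 0.156 without FL replicate 1). The deletions did not differ from FL past the threshold, at 0.28 ± 0.15 each (adjusted p 0.272 and 0.305), with approximate 95% intervals of −0.01 to 0.57 and −0.01 to 0.56. All constructs together were 0.58 ± 0.12 higher (adjusted p 0.00806).

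The ΔTFR4 call for SLC39A11 remained in each of the 12 fits that left out a library (adjusted p 0.00125 to 0.0342). The ΔTFR5 call was lost without any 1 empty vector library or ΔTFR5 replicate 1 or 2 (0.0597 to 0.0833), and that with all constructs without empty vector replicate 1 (0.0501).

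SSTR2, a G-protein-coupled receptor for somatostatin, was the scarcest member. Batch 1 had 7, 13 and 4 counts with empty vector, 14, 10 and 8 in FL, 4, 7 and 7 in ΔTFR1 and 8, 5 and 5 in ΔTFR2, and it did not pass the filter on low counts. In batch 2 empty vector libraries were at 1.03, 1.55 and 1.02 CPM, FL at 0.601, 0.627 and 1.03, ΔTFR4 at 0.85, 0.604 and 0.483, and ΔTFR5 at 1.03, 0.82 and 1.54. All ΔTFR4 libraries lay below empty vector, and the other construct groups overlapped it. Groups without overlap made up 56.7% of all genes in ΔTFR4 against empty vector. The log2 fold change was −0.67 ± 0.37 in FL (adjusted p 0.263; GC-removed −0.70, 0.221; −0.52 and 0.514 without FL replicate 1), −0.89 ± 0.38 in ΔTFR4 (0.105) and −0.08 ± 0.37 in ΔTFR5 (0.911). The ΔTFR4 value passed the threshold when only the 2 groups compared were fitted (−0.90, adjusted p 0.0477). That setting called 9081 genes in this comparison, where the main fit called 4489.

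COG1, a subunit of the oligomeric complex that tethers vesicles at the Golgi, was steady. In batch 1 its group means were 54.8 ± 3.76 CPM with empty vector, 54.8 ± 1.81 in FL, 54.7 ± 2.98 in ΔTFR1 and 58.4 ± 0.753 in ΔTFR2 (SD, n = 3). In batch 2 they were 43.2 ± 1.66, 42.1 ± 5.56 in FL, 44.7 ± 0.605 in ΔTFR4 and 44.1 ± 1.37 in ΔTFR5. All constructs against empty vector gave 0.03 ± 0.06 in batch 1 and 0.01 ± 0.09 in batch 2, with approximate 95% intervals of −0.08 to 0.14 and −0.17 to 0.20. FL alone gave −0.04 in batch 2 (0.02 GC-removed and 0.06 without FL replicate 1).

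FAM104A, a cofactor of the AAA-ATPase VCP and named VCF1 in RefSeq, had means of 51.6 ± 4.49 CPM with empty vector, 53.1 ± 2.04 in FL, 49.7 ± 0.914 in ΔTFR1 and 56.1 ± 2.94 in ΔTFR2 in batch 1. The ΔTFR2 libraries lay above all ΔTFR1 libraries, at 0.17 ± 0.07 (unadjusted p 0.0214, adjusted p 1.0), a pair of groups without overlap in 9.43% of all genes. In batch 2 the means were 45.1 ± 1.11 CPM with empty vector, 47.3 ± 4.16 in FL, 40.7 ± 1.11 in ΔTFR4 and 40.5 ± 0.277 in ΔTFR5. Both deletions lay below empty vector without overlap, at −0.15 ± 0.10 (adjusted p 0.328) and −0.16 ± 0.10 (0.367), and neither was called. Groups without overlap were common there, as 44.6% of all genes had them in ΔTFR5 against empty vector. FL gave 0.07 ± 0.10 (adjusted p 0.688; GC-removed 0.04, 0.787; −0.0 and 0.994 without FL replicate 1).

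CDC42EP4, an effector of the small GTPase CDC42 that acts on the actin and septin cytoskeleton, is the most distant member. In batch 1 its means were 56.1 ± 2.11 CPM with empty vector, 52.3 ± 1.68 in FL, 54.7 ± 1.82 in ΔTFR1 and 54.2 ± 2.63 in ΔTFR2. FL against empty vector was −0.10 ± 0.07 (adjusted p 0.282) and turned to 0.09 with the GC trend removed (0.502). At 59.1%, its longest transcript has the highest GC content of the members measured.

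CDC42EP4 fell in both deletion groups of batch 2. Empty vector libraries stood at 59.3, 60.7 and 68.4 CPM, FL at 42.0, 43.4 and 57.6, ΔTFR4 at 43.3, 37.4 and 42.1, and ΔTFR5 at 45.5, 47.3 and 41.3. All 9 construct libraries were lower than all 3 of empty vector, with FL replicate 3 closest to them, a lack of overlap shared by 14.2% of all genes. ΔTFR4 against empty vector was −0.62 ± 0.14 (adjusted p 0.00701; GC-removed −0.64, 0.00138) and ΔTFR5 −0.49 ± 0.14 (0.0397; GC-removed −0.49, 0.0105). All constructs together were −0.50 ± 0.11 lower (adjusted p 0.0084). FL was −0.40 ± 0.14 and was not called (adjusted p 0.106), though DESeq2 called it (0.0463), and it moved to −0.20 (0.232) with the GC trend removed, −0.31 (0.219) without FL replicate 1 and −0.56 (0.00354) without FL replicate 3. ΔTFR4 against FL was −0.22 ± 0.14 (adjusted p 0.35) and was called with the GC trend removed (−0.43, 0.0338), while without FL replicate 1 it was −0.31 (0.134).

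Leaving out a library kept the ΔTFR4 call for CDC42EP4 in each of 12 fits (adjusted p 0.000702 to 0.0447). The ΔTFR5 call was lost without any 1 library outside FL (0.0598 to 0.164) and with no filter on low counts (0.0641), and the call with all constructs without empty vector replicate 3 (0.0677).

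The annotated neighbourhood, 2 Mb to either side of the SLNCR and LINC00511 genes, gives the members their surroundings. In batch 1 it held 34 genes with a row, of which 13 were tested and SLNCR alone was called with all constructs. In batch 2 it held 65 rows, of which 16 were tested, and with all constructs 5 were called higher and 1 lower, 37.5% against 10.4% of all genes higher and 9.94% lower, and against 21.0% of the 1127 tested genes on the rest of the chromosome. The median log2 fold change of these 16 was 0.361, beside −0.018 for the rest of chromosome 17 and 0.018 for all genes. These counts include the plasmid-driven SLNCR row and the other members. Without the members 2 of 9 tested genes were called, both higher (22.2%, median 0.412), a share near both backgrounds. ROCR, 1 of these 2, passed the filter on low counts only through the construct groups, where it was high. It is counted in the 22.2%, the 37.5% and both medians, and gives them no independent support.

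Besides the members, both further genes called there lie beyond SOX9, on the side away from SLNCR. ROCR, a long noncoding RNA known to support SOX9 expression in cartilage formation (72021851 to 72034092, at a signed distance of −369.2 kb from SLNCR), had a mean of 0.737 ± 0.362 CPM over the 9 construct libraries against 0.181 ± 0.0585 with empty vector. Its log2 fold change with all constructs was 1.89 ± 0.39 (adjusted p 0.00635), with 2.61 ± 0.43 in ΔTFR4 (0.00182), 1.66 ± 0.44 in FL (0.0659; GC-removed 1.59, 0.0542; 1.53 and 0.164 without FL replicate 1) and 1.40 ± 0.45 in ΔTFR5 (0.0637). LINC01152 (72030291 to 72041297) went from 2.64 ± 0.289 to 6.04 ± 1.65 CPM, a log2 fold change of 1.18 ± 0.27 (adjusted p 0.01), with 1.44 ± 0.31 in ΔTFR4 (0.00611) and 1.10 ± 0.31 in ΔTFR5 (0.0414). The spans of these genes overlap on opposite strands, so their reads may not be separate. ROCR kept its calls in ΔTFR4 and with all constructs in each of the 12 fits without 1 library. With empty vector, however, it lay below the level that the filter on low counts asks for. It was thus tested only through the construct groups, where it was high, and these fits add no independent support. LINC01152 lost its call with all constructs without empty vector replicate 1 (adjusted p 0.0578) or 3 (0.0604), and its ΔTFR5 call without any 1 library outside FL (0.0607 to 0.159). In batch 1 LINC01152 gave −0.13 ± 0.25 with all constructs (adjusted p 0.837).

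ROCR and LINC01152 had their largest values in ΔTFR4, the group in which SOX9 lay closest to empty vector. No order among the construct groups was established for these 2 genes. The adjusted p of ΔTFR4 against FL was 0.164 for ROCR and 0.407 for LINC01152, and that of ΔTFR5 against ΔTFR4 0.338 and 0.757. A relation of either gene to SOX9 was not tested. SOX9-AS1, whose span takes in SOX9, was at 0.686 ± 0.245 CPM with constructs and 0.426 ± 0.275 with empty vector (0.66 ± 0.44, adjusted p 0.306). C17orf80, which overlaps FAM104A, gave 0.22 ± 0.11 (adjusted p 0.186).

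**Figure D4:**
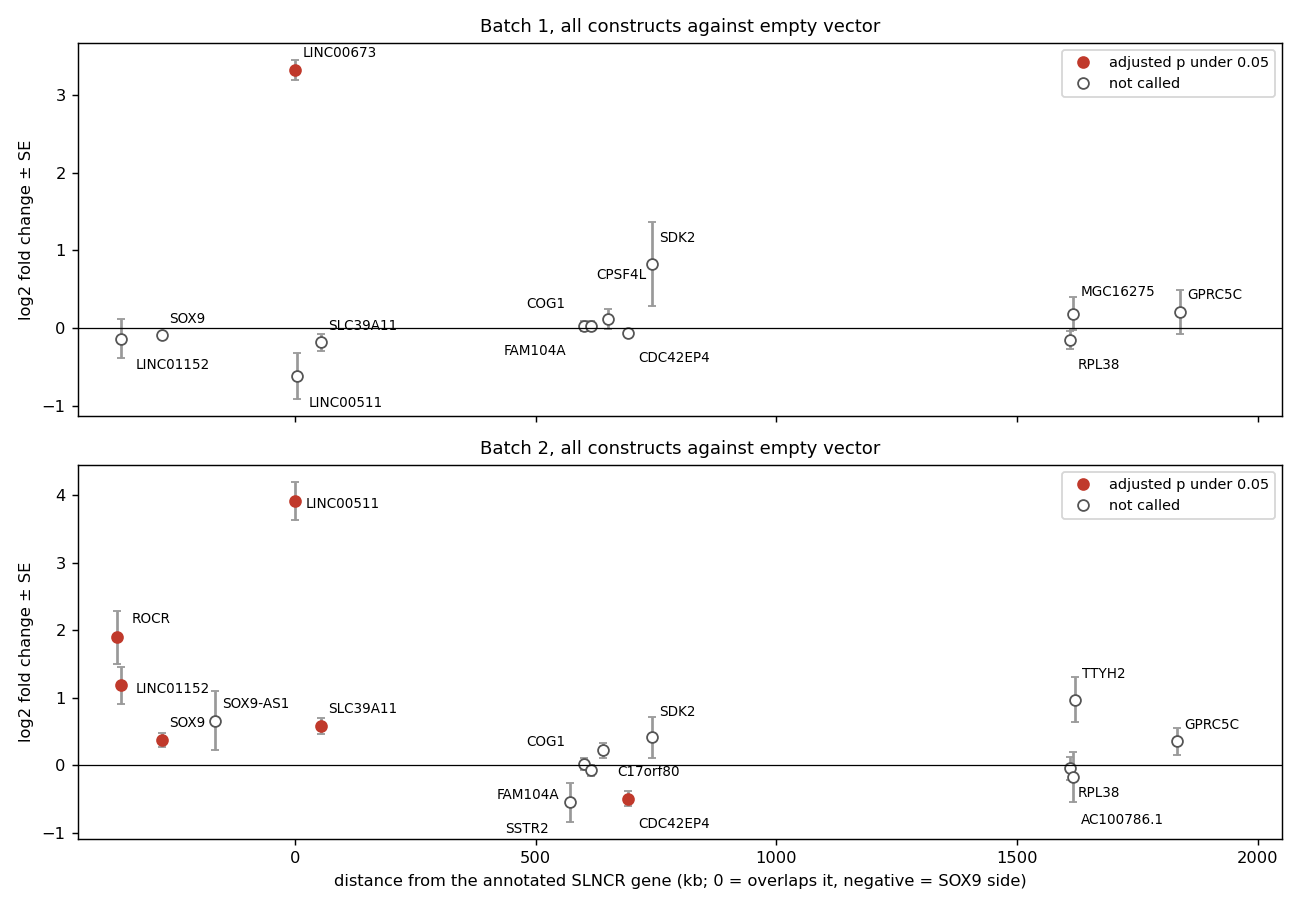
Log2 fold change ± standard error of all constructs against empty vector (y axis) for each tested gene of the neighbourhood, by distance from the annotated SLNCR gene in kb (x axis; negative values lie on the SOX9 side), in batch 1 (top) and batch 2 (bottom); red points have an adjusted p under 0.05. Batch 1 has 1 red point, LINC00673; batch 2 has 6, among them ROCR and LINC01152 on the SOX9 side and CDC42EP4, the 1 that is lower.

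Whether neighbours followed the amount of SLNCR RNA was read over the 9 construct libraries of each batch, in log2 CPM, with exact two-sided permutation tests over all pairings and adjustment over the 12 relations. The libraries fall in 3 groups, so they are not fully independent. No relation passed after adjustment. SOX9 gave Pearson r 0.07 (p 0.855; Spearman rho 0.03, p 0.948) in batch 1 and 0.31 (p 0.428; rho 0.22, p 0.581) in batch 2, with adjusted p of 0.855 for both r. Without the 2 libraries farthest from the median SLNCR level the r of SOX9 was −0.04 (batch 1) and 0.16 (batch 2). SSTR2 in batch 2 came closest, at r −0.83 (exact p 0.00557, adjusted 0.0668) and rho −0.73 (exact p 0.0311, adjusted 0.373), and its r was −0.64 without the 2 libraries farthest from the median SLNCR level, ΔTFR5 replicate 3 and FL replicate 1. Within the groups of 3 libraries, too few for a test, the r of SOX9 in batch 2 was 0.968 in FL, 0.582 in ΔTFR4 and 0.87 in ΔTFR5. In batch 1 the r of SOX9 was 0.997 in FL, −0.172 in ΔTFR1 and 0.481 in ΔTFR2. Such values swing widely on 3 points: that of CDC42EP4 in batch 2 was −1.0, −0.13 and 0.998. That of SSTR2 in batch 2 was −0.999, 0.909 and −0.99, so ΔTFR4 went against its pooled sign. The counts of SSTR2 there were 13 to 41.01 per library. The other relations had exact p of 0.109 to 0.848 for r.

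**Figure D5:**
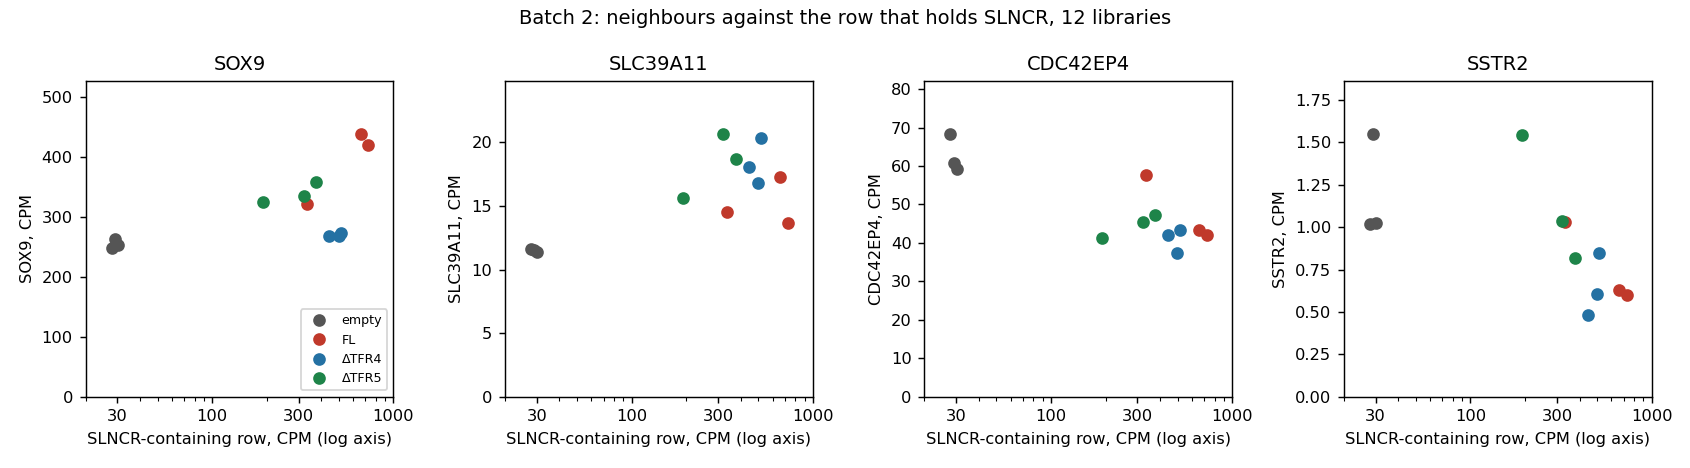
CPM of SOX9, SLC39A11, CDC42EP4 and SSTR2 (y axes, from 0) against CPM of the row that holds SLNCR (x axis, log scale) in the 12 libraries of batch 2, coloured by group. Empty vector libraries lie apart on the left at 27.9 to 30.1 CPM. Among the 9 construct libraries SOX9 is lowest in ΔTFR4, and the row that holds SLNCR is lower in ΔTFR5 than in ΔTFR4. In ΔTFR5 against ΔTFR4 neither was called (that row −0.71, adjusted p 0.411, and SOX9 0.33, adjusted p 0.409).

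The genes whose pattern was most like that of SLNCR were not its neighbours. Over the 12 libraries of batch 1 the highest Pearson correlations of log2 CPM with LINC00673 were those of C11ORF45 (0.876), PPM1H (0.863) and MTRF1L (0.855), and the neighbours lay between −0.597 and 0.19. Over the 12 of batch 2 they were HDGFL1 (0.964), KLHL28 (0.957) and POU2F2 (0.95), with SLC39A11 at 0.783, SOX9 at 0.638 and CDC42EP4 at −0.834. For SOX9 the 3 highest were CD320 (0.937), ZNF132 (0.935) and SNX33 (0.905) in batch 1, and ELF2 (0.936), TASP1 (0.915) and TAFA2 (0.913) in batch 2. No gene was among the 3 in both batches. The empty vector libraries make up one end of each SLNCR pattern, and such values are descriptions without a test.

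Gene families of the members were counted with all constructs against empty vector. In batch 1 none of the family genes was called: 0 of 8 tested SOX9 targets and cofactors, 0 of 9 SLC39 zinc importers, 0 of 7 further COG subunits, 0 of 8 CDC42 effectors and 0 of 7 SLNCR partners, where edgeR called 0.021% of all genes. In FL alone, where 22.7% of all genes were called and the GC trend differed as given above, 3 zinc importers were higher and 2 lower of 9, 2 COG subunits higher and 1 lower of 7, 2 CDC42 effectors higher and 2 lower of 8, 1 of 8 SOX9 targets lower and 0 of 7 SLNCR partners either way. In batch 2, at a background of 20.3%, 1 of 13 SOX9 targets and cofactors was higher and 2 were lower, with a median log2 fold change of 0.129. None of the 10 other zinc importers tested was higher and 4 were lower (median −0.302), while SLC39A11 was higher. Of 7 other COG subunits 1 was higher (median 0.011), and of 8 CDC42 effectors 1 was higher and 1 lower (median 0.183). Of 7 SLNCR partners 1 was higher and 1 lower (median −0.103). The median over all genes was 0.018. SOX9 targets in ΔTFR5 were higher in 4 of 13 and lower in 0, and in ΔTFR4 higher in 1 and lower in 3, at backgrounds of 10.2% and 23.9%. In FL, the group with the highest SOX9, 0 of 13 were called (median −0.051) at a background of 1.16%.

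Per kb of exon, the levels with empty vector ran in nearly the same order in both batches. In batch 1 SOX9 was followed by FAM104A (16.3 ± 1.42 CPM per kb, SD, n = 3), CDC42EP4 (11.2 ± 0.421), COG1 (10.3 ± 0.708), LINC00673 (7.66 ± 0.397), SLC39A11 (2.04 ± 0.309), LINC00511 (0.654 ± 0.0778) and SSTR2 (0.106 ± 0.064). CDC42EP4 and COG1 lay within their combined spread in batch 1, and the other neighbours in that order lay farther apart than theirs. In batch 2 the order was SOX9, FAM104A (14.3 ± 0.352), CDC42EP4 (12.5 ± 0.98), COG1 (8.13 ± 0.312), SLC39A11 (2.06 ± 0.0202) and SSTR2 (0.153 ± 0.0388). LINC00511 is left out there because its row mixes many transcripts.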

How the data were processed

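RNA sequencing of A375 cells was deposited as 2 tables of 12 libraries. Batch 1 is the authors' deposited table of unnormalized counts, 1 row for each symbol line, and batch 2 holds estimated counts from salmon per Ensembl gene, named as such per the file headers and rounded here. Per the submitters' processing notes, STAR 2.7.3a, featureCounts and cutadapt 2.5 were used. For which batch featureCounts and cutadapt were used is not stated. For annotation and strand setting the sources used here give nothing. More counts per library in batch 2 give less counting error there for the same gene. The spread between replicates was larger there. Its fitted measure, the biological coefficient of variation, was 0.212 in batch 2 and 0.0503 in batch 1. The spread was uneven in batch 2: pairs of FL replicates had a mean chi-square per gene of 62.8 to 225, against 8.13 to 38.9 in the other groups. All groups share 1 estimate of the spread. With only the compared groups fitted, FL against empty vector called 2 genes in place of 217, and ΔTFR4 against empty vector 9081 in place of 4489.

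Each batch was fitted apart with edgeR 4.0.16 (TMM, filterByExpr with a minimum count of 10, quasi-likelihood test, all 4 groups in 1 model), which left 14310 and 18763 genes. P-values were adjusted (Benjamini-Hochberg) over all genes of a comparison. Genes with an adjusted p below 0.05 are called. The standard error is the log2 fold change over the square root of F. CPM values are from edgeR's cpm function with TMM library sizes. A second value, given as GC-removed, comes from a fit with each library's trend of expression with GC content taken out. Alternatives were DESeq2 1.42.0, RLE size factors, no filter, the compared groups only, GC and length trends removed, a replicate block, and each library left out. Same-numbered libraries did not deviate together, so no pairing was assumed.

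Genes named are the 8 members, the 3 genes most alike (log2 CPM mean 1 or more, tested) to the SLNCR row and to SOX9, and called genes within 2 Mb. The members and lists were chosen with earlier results of these data known. The fits were tested on simulated data. Positions are from RefSeq and GENCODE v29 (GRCh38), and sequences from RefSeq (GRCh38.p14) or GENCODE transcripts matched to RefSeq.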

Additional observations from a re-analysis of the deposited data

Results flagged for a closer look

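For SOX9 and SLC39A11 the FL values had opposite signs in the 2 batches, although the SOX9 value of batch 2 alone passed the test: every FL library lay below the empty vector mean in batch 1 and above it in batch 2. The batches were not fitted together, and this difference was not tested. For SOX9 the log2 fold change was −0.13 in batch 1 (adjusted p 0.0777; −0.07 and 0.491 with the GC trend removed) and 0.62 in batch 2 (called); on log2 CPM, the FL replicates differed from the empty vector mean by −0.14, −0.12 and −0.12 in batch 1 and by 0.72, 0.78 and 0.33 in batch 2. For SLC39A11 the log2 fold change was −0.18 in batch 1 and 0.40 in batch 2, neither called; the replicates differed by −0.13, −0.32 and −0.02 in batch 1 and by 0.24, 0.59 and 0.33 in batch 2. The batches also differ in counting method and in the SLNCR level reached, and the part of these in the difference was not tested.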

How the results depend on the processing

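No called value changed sign under any alternative run. Of 761 values for members under alternatives other than leaving out a library, 746 kept their side of the threshold, 6 lost a call and 9 gained one; of 1176 with a library left out, 1127 kept it, 44 lost a call and 5 gained one. Where a setting moved the count of members called, the cause was not tested. With only the compared groups fitted, batch 2 FL against empty vector went from 2 members called to 1, ΔTFR4 against FL from 1 to 0 and ΔTFR5 against ΔTFR4 from 0 to 1. Without a filter, ΔTFR5 against empty vector went from 4 to 2 (SOX9 and CDC42EP4 lost), and with RLE size factors to 3 (SOX9 lost). With the GC trend, with GC and length trends, and with the GC trend and the replicate block, ΔTFR4 against FL had 2. ΔTFR5 against FL had 1 with DESeq2 and 1 with the GC trend and the replicate block. The replicate numbers do not pair the libraries (same-numbered correlations −0.142 to 0.197); as a block they gave 2 members called, SOX9 being the added one (−0.13, adjusted p 0.0453), in batch 1 FL against empty vector, and changed no other count of members.

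With a library left out, members called ranged in batch 1 from 1 to 1 against empty vector and for any difference, from 0 to 1 in each deletion against FL, and from 0 to 0 between deletions. In batch 2 they ranged from 1 to 3 (FL against empty vector), 3 to 3 (ΔTFR4), 1 to 4 (ΔTFR5), 2 to 4 (all constructs), 0 to 1 (ΔTFR4 against FL), 0 to 2 (ΔTFR5 against FL), 0 to 0 (between deletions) and 2 to 4 (any difference). Counts over all genes, the background of the members, moved more. In batch 1 FL against empty vector called 3247 genes and 320 with the GC trend removed, and ΔTFR1 and ΔTFR2 against FL called 1440 and 1432, with 15 to 2231 and 24 to 2178. All constructs called 3 genes there and 329 without a filter, and any difference 1918 and 81 to 2702. In batch 2 FL against empty vector called 217, with 2 in the compared groups alone and 1947 by DESeq2; ΔTFR4 against empty vector called 4489 and up to 9081, ΔTFR5 against empty vector 1907 and up to 5635, ΔTFR4 against FL 819 and 33 to 1868, ΔTFR5 against FL 259 and 1 to 1401, ΔTFR5 against ΔTFR4 85 and up to 1106, and any difference 3502 and up to 5597. With a library left out, these counts ranged in batch 1 from 1182 (without empty vector 1) to 4064 (without FL 2) in FL against empty vector, 1 (without empty vector 1) to 539 (without FL 2) with all constructs, 22 (without ΔTFR1 1) to 2752 (without FL 2) in ΔTFR1 against FL and 0 (without ΔTFR2 2) to 2710 (without FL 2) in ΔTFR2 against FL. In batch 2 they ranged from 6 (without empty vector 1) to 5966 (without FL 3) in FL against empty vector, 2309 (without ΔTFR4 2) to 7329 (without FL 1) in ΔTFR4, 440 (without ΔTFR5 2) to 4600 (without FL 1) in ΔTFR5, 1082 (without empty vector 3) to 6464 (without FL 3) with all constructs, 79 (without ΔTFR4 2) to 2220 (without FL 3) in ΔTFR4 against FL, 19 (without ΔTFR5 2) to 3480 (without FL 3) in ΔTFR5 against FL and 39 (without ΔTFR4 1) to 387 (without FL 3) between deletions. Depth limits LINC00511 in batch 1 and SSTR2 in both batches, at 4 to 44.03 counts per library. It also limits ROCR in batch 2, which was at 0.181 ± 0.0585 CPM with empty vector.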
